A study of Mus musculus with 28 samples.

Results

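The genes *Tbr1*, *Neurod6*, *Bcl11b*, *Fezf2*, *Cux2*, *Rorb*, *Emx1* and *Neurod2* encode transcription factors that are used as markers of cortical projection neurons, the glutamatergic neurons that send axons out of the area of cortex in which they lie. These 8 genes were taken by symbol from the 23038 genes of the deposited tables, and all 8 had a row. They were measured by RNA-seq in 28 mouse libraries, namely P21 cortex and P21 midbrain, with 4 mice of each genotype apiece, and E18.5 midbrain with 6 mice of each genotype (*Nova1* wt/wt or hu/hu). E18.5 is an embryonic day shortly before birth, and P21 is the postnatal day around weaning. The hu/hu mice carry, on both alleles and in every cell, a Cas9 knock-in that changes a single isoleucine of the splicing regulator NOVA1 to the valine found in modern humans, with 2 silent changes for genotyping. The wt/wt mice are their littermates, and both are on a C57BL/6J background.

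During forebrain development a cascade of transcription factors gives dorsal progenitors their cortical identity, commits their daughters to a glutamatergic fate and then divides these neurons into layers and projection classes. EMX1 acts in the progenitors and lasts in the neurons of the dorsal telencephalon. NEUROD2 and NEUROD6 are basic helix-loop-helix factors of differentiating excitatory neurons. TBR1 is needed for corticothalamic neurons of layer 6, FEZF2 and BCL11B (CTIP2) for subcerebral neurons of layer 5, CUX2 marks the upper layers and RORB marks layer 4. Several of them are also used outside the cortex, among them *Bcl11b* in striatal projection neurons, *Neurod2* in cerebellar granule cells and *Rorb* in thalamus and sensory relay nuclei. The comparison asked how far each was restricted to the cortex dissections, how much of the cortical level was seen in the midbrain dissections, and whether genotype moved any of them.

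Level is given as TPM, a transcript level which divides a gene's count by its exon length and scales each library to the same sum, so that genes can be set side by side. Libraries held 30423267 to 35643736 counts in P21 cortex, 25256326 to 45134998 in P21 midbrain and 18550922 to 35047494 in E18.5 midbrain. Differences are log2 fold changes from edgeR's quasi-likelihood test on counts, called at p under 0.05 with a Benjamini-Hochberg adjusted p under 0.1. The fitted values use TMM scaling, which centres on genes that differ little. A median gene's TPM ratio lay 0.075 below the fitted log2 value for P21 cortex against P21 midbrain, 0.26 below it for P21 cortex against E18.5 midbrain and 0.20 below it for P21 against E18.5 midbrain, so that fold changes and TPM ratios of 1 gene are not identical. The labels were set beside markers. The lists were chosen with earlier results of these data known, so that this is no independent check of the labels. All 21 genes of a midbrain list were lower in cortex than in midbrain at P21, with a summed level of 21.2 to 33.3 TPM in cortex and 280.2 to 329.3 TPM in P21 midbrain, and the midbrain factors *Foxa2* and *Sox14* had 0 counts in all 8 cortex libraries. The edited gene, *Nova1*, did not separate the genotypes in level, at 22.95 to 25.5 TPM in wt/wt and 23.3 to 25.5 TPM in hu/hu cortex; the knock-in changes its sequence, so that its level does not check the labels.

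Promoters are shown for 5 of the 8 genes, 3 with a strong cortical excess (*Emx1*, *Tbr1* and *Neurod2*) and the 2 with the smallest cortical excess (*Cux2* and *Rorb*). Each runs from 250 bases before to 50 bases after a RefSeq transcript start (GRCm38.p6, the build of the deposited files, mm10), 5′ to 3′ on the gene's own strand. Capitals mark CANNTG, the E-box read by basic helix-loop-helix proteins, and TAATTA, a core read by homeodomain proteins. For *Cux2* and *Rorb*, which have 2 listed starts each, the outer one is shown. The *Tbr1* and *Cux2* windows lie inside the gene spans given below, so that these starts are not the outer ends of the spans.
Emx1 (chr6:85187681-85187980, plus strand): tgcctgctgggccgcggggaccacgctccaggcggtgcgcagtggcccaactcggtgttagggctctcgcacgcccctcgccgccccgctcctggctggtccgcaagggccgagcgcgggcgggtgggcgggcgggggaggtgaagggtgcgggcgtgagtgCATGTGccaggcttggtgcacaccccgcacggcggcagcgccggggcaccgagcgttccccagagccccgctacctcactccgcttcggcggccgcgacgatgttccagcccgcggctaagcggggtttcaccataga
Tbr1 (chr2:61804203-61804502, plus strand): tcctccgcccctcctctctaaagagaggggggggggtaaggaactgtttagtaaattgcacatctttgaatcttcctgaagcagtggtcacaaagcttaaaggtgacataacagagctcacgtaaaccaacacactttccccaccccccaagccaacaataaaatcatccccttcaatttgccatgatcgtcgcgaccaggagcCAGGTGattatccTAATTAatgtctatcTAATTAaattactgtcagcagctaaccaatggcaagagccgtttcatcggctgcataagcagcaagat
Neurod2 (chr11:98329596-98329895, minus strand): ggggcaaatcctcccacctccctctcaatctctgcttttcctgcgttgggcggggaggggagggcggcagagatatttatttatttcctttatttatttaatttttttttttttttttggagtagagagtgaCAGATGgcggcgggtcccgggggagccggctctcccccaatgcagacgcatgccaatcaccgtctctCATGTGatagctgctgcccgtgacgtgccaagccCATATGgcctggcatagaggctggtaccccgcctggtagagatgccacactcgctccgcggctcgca
Cux2 (chr5:122049802-122050101, minus strand): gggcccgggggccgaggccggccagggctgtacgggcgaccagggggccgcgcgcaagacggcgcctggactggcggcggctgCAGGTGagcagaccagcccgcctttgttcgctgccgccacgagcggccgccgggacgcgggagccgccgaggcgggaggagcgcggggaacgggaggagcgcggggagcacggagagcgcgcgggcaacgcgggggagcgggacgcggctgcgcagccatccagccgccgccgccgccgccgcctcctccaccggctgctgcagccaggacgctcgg
Rorb (chr19:19111147-19111446, minus strand): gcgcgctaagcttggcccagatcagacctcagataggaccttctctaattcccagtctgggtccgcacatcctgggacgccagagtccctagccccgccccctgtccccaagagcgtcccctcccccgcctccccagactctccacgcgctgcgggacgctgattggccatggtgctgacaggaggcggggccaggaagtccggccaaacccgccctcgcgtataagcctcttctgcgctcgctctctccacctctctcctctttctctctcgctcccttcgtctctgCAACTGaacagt
CANNTG reads the same on both strands and stood in 72.3% of the 32817 RefSeq promoters of this length. The *Emx1*, *Tbr1*, *Cux2* and *Rorb* windows each held 1 and the *Neurod2* window held 3. Of the windows not shown, those of *Fezf2* and *Bcl11b* held 0 and that of *Neurod6* held 2. The second starts of *Cux2* and *Rorb* held 2 and 3. The NEUROD-type form, CAGATG or its reverse complement CATCTG, was found once in the *Neurod2* window, once at the second *Cux2* start, which is not shown, and in 17.2% of all promoters. TAATTA, also its own reverse complement, was found at 2 places in the *Tbr1* window, in no other window shown and in 5.3% of all promoters. GC content divided the windows in another way, at 80.3% for *Cux2* and 74.0% for *Emx1* against 46.0% for *Tbr1*, with a median of 52.7% over all promoters, and *Cux2* held 48 CG dinucleotides where the median promoter held 7. The matches describe these letters and show no binding.

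At P21, all 8 genes were called higher in cortex than in midbrain, where 37.7% of the 16345 genes tested were called higher. Of the 8, 6 were at least 4-fold higher (*Emx1*, *Fezf2*, *Tbr1*, *Neurod6*, *Neurod2* and *Bcl11b*), where 2.43% of all genes were. The median log2 fold change was 4.33 over the 8 genes and −0.00063 over all genes tested. *Emx1*, *Fezf2* and *Tbr1* held places 3, 6 and 13 among all genes ordered from the highest fold change, while *Cux2* and *Rorb* held places 3002 and 5842. Every cortex library lay above every midbrain library for 7 of the 8 genes, where this held for 19.2% of all genes. *Emx1* and *Fezf2* were below the filter on low counts in P21 midbrain and were tested through their cortex level. The genes had been picked as cortical markers, so this contrast describes how strongly each one marks these dissections.

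**Figure D1:**
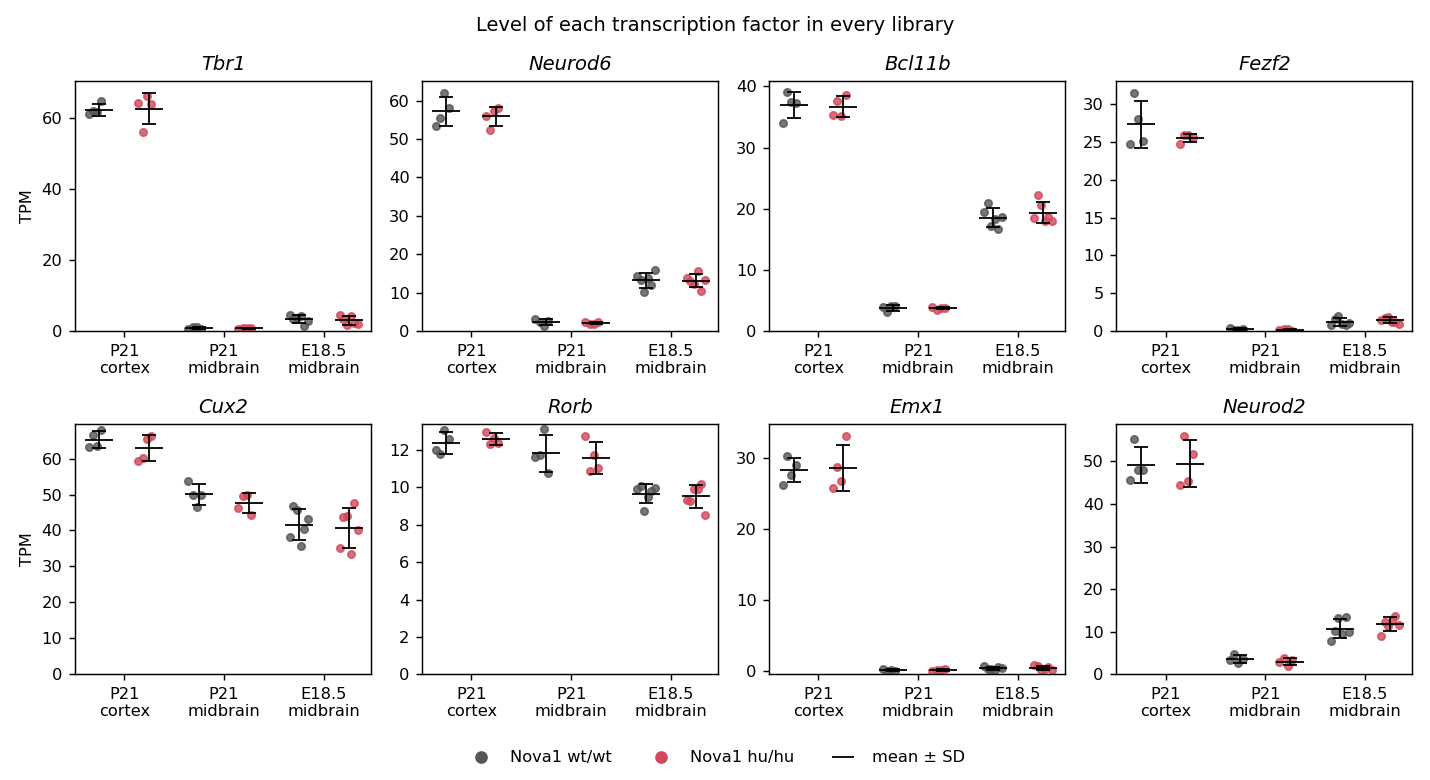
TPM of each of the 8 genes in every library, with 1 panel per gene and its own linear axis. Points are libraries (grey wt/wt, red hu/hu), and black bars give the mean ± SD of 4 P21 or 6 E18.5 libraries. *Emx1*, *Fezf2* and *Tbr1* fell close to 0 in midbrain, *Cux2* and *Rorb* stayed closest to their cortical level, and the genotypes overlapped for every gene in every panel.

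*Emx1* (chr6:85187931-85204463, plus strand) had the steepest contrast. In P21 cortex, Emx1 was measured at 26.2, 30.3, 27.7 and 29.1 TPM in the 4 wt/wt libraries and 25.8, 28.8, 26.8 and 33.1 TPM in the 4 hu/hu libraries. In P21 midbrain it was at 0.309, 0, 0.0873 and 0 TPM in wt/wt and 0, 0.116, 0.157 and 0.21 TPM in hu/hu. These midbrain levels rest on 0 to 3 counts per library and 11 counts in all, and 3 of the 8 libraries had none, which allows up to 3 counts or 0.191 to 0.238 TPM in them. Cortex and midbrain did not overlap, and the fitted log2 fold change was 8.07 (SE 0.19, adjusted p = 1.92e-21). The mean TPM was 259-fold higher in cortex, with an interval of 145 to 519 for the counting error of the 11 midbrain counts. In E18.5 midbrain the lowest, median and highest levels were 0.129, 0.329 and 0.681 TPM in wt/wt and 0.123, 0.375 and 0.863 TPM in hu/hu, from 1 to 6 counts per library. All lay far below the lowest cortex library, and P21 cortex exceeded E18.5 midbrain by 6.43 on the log2 scale (SE 0.15).

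*Neurod2* (chr11:98325415-98329645, minus strand) is expressed as excitatory neurons mature. In P21 cortex, Neurod2 was measured at 45.6, 55.4, 48.1 and 48 TPM in the 4 wt/wt libraries and 44.5, 56, 45.3 and 51.8 TPM in the 4 hu/hu libraries. Replicate 2 was the highest of both genotypes. In P21 midbrain the values were 3.47, 4.84, 2.71 and 3.59 TPM in wt/wt and 2.94, 3.79, 1.93 and 3.46 TPM in hu/hu. The regions did not overlap, and cortex was higher by 3.95 on the log2 scale (SE 0.099, adjusted p = 4.94e-21). E18.5 midbrain held 7.84, 10.2 and 13.4 TPM in wt/wt and 9.09, 12 and 13.8 TPM in hu/hu (lowest, median and highest), which lay between both P21 regions without touching either. There the difference from P21 cortex was a log2 fold change of 2.39 (SE 0.077).

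*Neurod6* (chr6:55677818-55681263, minus strand), a paralog of *Neurod2*, was close to *Neurod2* in all 3 dissections. In P21 cortex, Neurod6 was measured at 53.4, 55.5, 62 and 57.9 TPM in the 4 wt/wt libraries and 56.1, 52.2, 57.2 and 58 TPM in the 4 hu/hu libraries. The P21 midbrain libraries held 3.2, 2.42, 1.43 and 2.67 TPM in wt/wt and 2.39, 1.95, 1.92 and 2.29 TPM in hu/hu. No midbrain library came near the cortical range, and the log2 fold change was 4.71 (SE 0.081, adjusted p = 3.17e-24). At E18.5 the lowest, median and highest midbrain levels were 10.3, 13.6 and 15.8 TPM in wt/wt and 10.3, 13.3 and 15.6 TPM in hu/hu. P21 cortex remained above every one of them, by 2.36 on the log2 scale (SE 0.073).

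*Tbr1* (chr2:61802863-61814114, plus strand) specifies layer 6 corticothalamic neurons. In P21 cortex, Tbr1 was measured at 60.9, 61.8, 61.7 and 64.7 TPM in the 4 wt/wt libraries and 64.1, 56.1, 66.2 and 63.8 TPM in the 4 hu/hu libraries. Its P21 midbrain levels were 0.761, 1.08, 1.06 and 0.731 TPM in wt/wt and 0.586, 0.785, 0.924 and 0.951 TPM in hu/hu, or 25 to 46 counts per library. Cortex was higher by 6.27 on the log2 scale (SE 0.070, adjusted p = 2.21e-27), and the regions did not overlap. In E18.5 midbrain, *Tbr1* was at 4.54, 3.42, 3.71, 4.32, 1.41 and 2.93 TPM in wt/wt replicates 1 to 6 and 4.58, 3.45, 1.63, 4.14, 2.23 and 2.07 TPM in hu/hu replicates 1 to 6. This was a wide spread, with replicates 1 and 4 the highest of both genotypes. Replicate 5 was the lowest of wt/wt and replicate 3 the lowest of hu/hu. Against P21 cortex the log2 fold change was 4.57 (SE 0.14).

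*Fezf2* (chr14:12338992-12346803, minus strand) specifies subcerebral neurons of layer 5. In P21 cortex, Fezf2 was measured at 24.7, 31.5, 28 and 25.1 TPM in the 4 wt/wt libraries and 24.8, 25.9, 25.9 and 25.7 TPM in the 4 hu/hu libraries. P21 midbrain had 0.46, 0.141, 0.156 and 0.227 TPM in wt/wt and 0.158, 0.284, 0.279 and 0.0937 TPM in hu/hu, from 3 to 11 counts per library. The regions were far apart, with a log2 fold change of 6.96 (SE 0.13, adjusted p = 7.81e-24). At E18.5 the midbrain held 0.789, 1.03 and 2.04 TPM in wt/wt and 0.892, 1.4 and 1.92 TPM in hu/hu (lowest, median and highest), below every cortex library by a log2 fold change of 4.58 (SE 0.11) at P21.

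*Bcl11b* (chr12:107910403-108004145, minus strand) acts after *Fezf2* in layer 5 and is also made by striatal projection neurons and interneurons. In P21 cortex, Bcl11b was measured at 34, 39, 37.5 and 37.3 TPM in the 4 wt/wt libraries and 35.4, 37.7, 35.2 and 38.5 TPM in the 4 hu/hu libraries. In P21 midbrain it was at 3.94, 3.09, 4.15 and 4.08 TPM in wt/wt and 3.99, 3.5, 3.8 and 3.87 TPM in hu/hu. The contrast was the weakest of the 6 genes past 4-fold, with a log2 fold change of 3.35 (SE 0.047, adjusted p = 8.51e-26). E18.5 midbrain reached 16.7, 18.47 and 21 TPM in wt/wt and 18, 18.6 and 22.3 TPM in hu/hu (lowest, median and highest), the highest level there after *Cux2*. P21 cortex was still above every E18.5 library, with a log2 fold change of 1.22 (SE 0.043), which is under 4-fold. The cortex libraries also held striatal genes. A list of 12 striatal markers summed to 849.7 to 1034 TPM in cortex and 158 to 176 TPM in P21 midbrain, 9 of the 12 were higher and 2 lower in cortex, where 37.7% and 37.9% of all genes were, and 1 was not called. *Zfp503* and *Six3*, factors of striatal development, were the lower ones, with log2 fold changes of −1.02 and −0.43. *Adora2a*, the adenosine receptor of striatopallidal neurons, had the highest (4.69) and was at 43.9, 56.3, 51.3 and 53.7 TPM in wt/wt and 40.7, 55.3, 46.2 and 46.3 TPM in hu/hu cortex. The part of such cells in the *Bcl11b* level was not tested.

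*Cux2* (chr5:121857962-122050415, minus strand), a homeodomain factor of upper-layer neurons, behaved differently. In P21 cortex, Cux2 was measured at 63.1, 66.6, 63.6 and 67.8 TPM in the 4 wt/wt libraries and 59.4, 60.3, 65.5 and 66.4 TPM in the 4 hu/hu libraries. P21 midbrain was at 53.8, 49.8, 46.4 and 49.998 TPM in wt/wt and 46.4, 49.7, 49.97 and 44.4 TPM in hu/hu. All 8 cortex libraries lay above all 8 midbrain libraries, yet the log2 fold change was only 0.47 (SE 0.034, adjusted p = 7.64e-12). In E18.5 midbrain the lowest, median and highest were 35.8, 41.7 and 46.7 TPM in wt/wt and 33.4, 41.9 and 47.7 TPM in hu/hu. P21 cortex exceeded it by a log2 fold change of 0.90 (SE 0.047).

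*Rorb* (chr19:18930609-19111196, minus strand) encodes an orphan nuclear receptor of layer 4. In P21 cortex, Rorb was measured at 12, 11.8, 13.1 and 12.6 TPM in the 4 wt/wt libraries and 13, 12.3, 12.7 and 12.4 TPM in the 4 hu/hu libraries. Its P21 midbrain level was 11.6, 11.7, 13.1 and 10.8 TPM in wt/wt and 12.7, 10.9, 11.7 and 11 TPM in hu/hu. Here the regions overlapped, with the highest midbrain library above the highest cortex library, and the called difference was small at a log2 fold change of 0.17 (SE 0.043, adjusted p = 0.00106). Its E18.5 midbrain levels were 8.73, 9.88 and 10.1 TPM in wt/wt and 8.51, 9.61 and 10.2 TPM in hu/hu (lowest, median and highest), and P21 cortex was higher by 0.64 on the log2 scale (SE 0.041).

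Ordered by mean TPM, P21 cortex ran from *Cux2* (64.1) through *Tbr1* (62.4), *Neurod6* (56.5), *Neurod2* (49.3), *Bcl11b* (36.8), *Emx1* (28.5) and *Fezf2* (26.4) to *Rorb* (12.5). Neighbours from *Cux2* to *Neurod2* overlapped over libraries, as did *Emx1* and *Fezf2*, whereas *Bcl11b* and *Rorb* stood apart from their neighbours. P21 midbrain had another order. *Cux2* (48.8) and *Rorb* (11.7) led, each apart from the next, and *Bcl11b* (3.80), *Neurod2* (3.34) and *Neurod6* (2.28) followed with overlapping neighbours, then *Tbr1* (0.859), *Fezf2* (0.225) and *Emx1* (0.110), of which the last pair overlapped. In E18.5 midbrain *Cux2* (41.2) was again first, followed by *Bcl11b* (18.9), *Neurod6* (13.2), *Neurod2* (11.3), *Rorb* (9.59), *Tbr1* (3.20), *Fezf2* (1.33) and *Emx1* (0.401). Libraries overlapped there between *Neurod6* and *Neurod2*, between *Neurod2* and *Rorb*, and along *Tbr1*, *Fezf2* and *Emx1*. Within cortex the spread over the 8 libraries was small, with a coefficient of variation of 3.57% for *Rorb* to 9.19% for *Neurod2*.

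**Figure D2:**
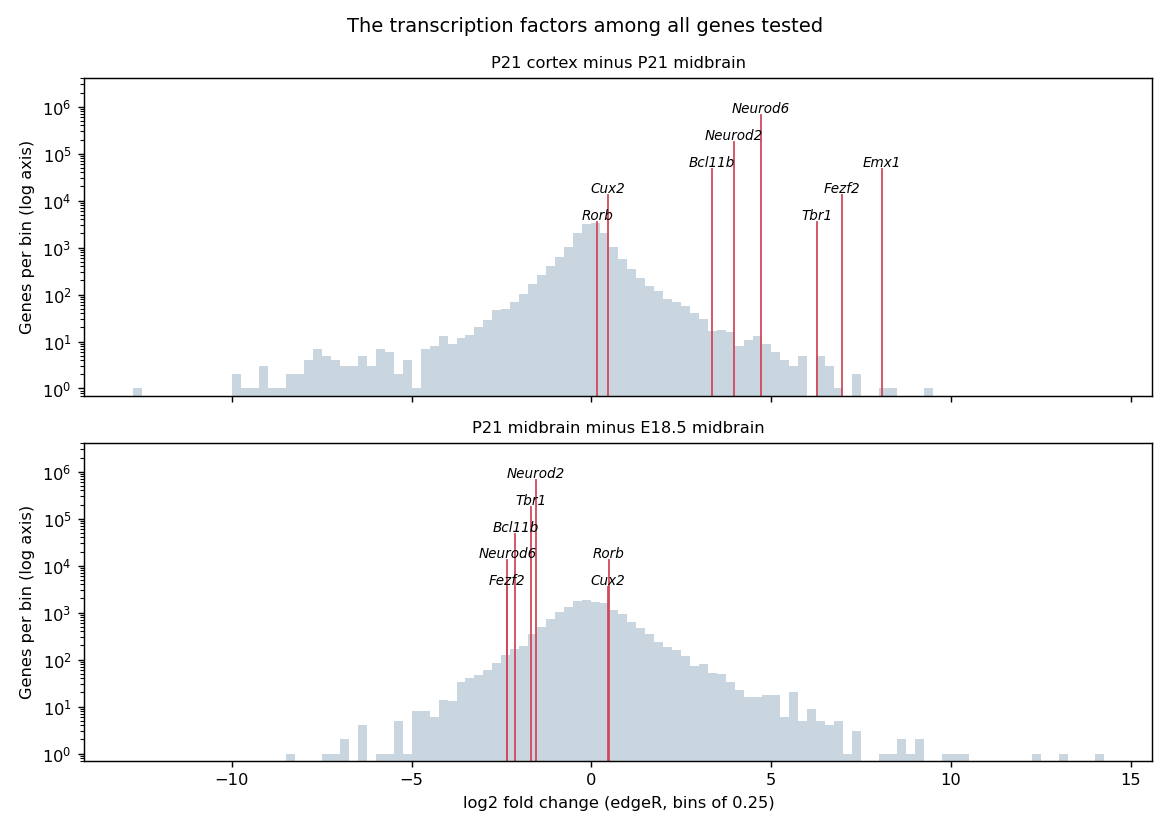
Log2 fold changes of all genes tested, in bins of 0.25 with the number of genes per bin on a log axis, for P21 cortex minus P21 midbrain (top) and P21 minus E18.5 midbrain (bottom). Red lines mark the transcription factors by name, and their height carries no value; *Emx1*, at 8.07, lies near the upper end of the regional distribution, *Rorb*, at 0.17, lies in its bulk, and in the bottom panel 5 genes lie below 0 and 2 above it (*Emx1* was not tested there).

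P21 cortex against E18.5 midbrain, where region and age differ together and cannot be told apart, gave the same direction. All 8 genes were called higher in cortex, where 42.7% of 16397 genes were, and 5 of 8 were at least 4-fold higher, where 6.39% were. Among these, *Emx1* was below the filter on low counts in E18.5 midbrain and was tested through its cortex level. Every cortex library lay above every E18.5 midbrain library for all 8, where this held for 22.6% of genes. The median log2 fold change over the 8 genes was 2.38. This comparison shares its cortex libraries with the regional one and its midbrain libraries with the comparison of ages.

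The level in midbrain as a share of the P21 cortex level was taken as a check on dissection. At P21 it was 0.386% ± 0.396 (SD over 8 libraries) for *Emx1*, 0.85% ± 0.441 for *Fezf2* and 1.38% ± 0.274 for *Tbr1*. It was 4.04% ± 0.945 for *Neurod6*, 6.77% ± 1.72 for *Neurod2* and 10.3% ± 0.95 for *Bcl11b*. *Cux2* kept 76.2% ± 4.61 and *Rorb* 93.8% ± 6.95. The ranges over libraries did not overlap between the first 3 genes and *Neurod6*, *Neurod2* or *Bcl11b*, so that no single percentage held for all 8. For *Emx1* the counting interval of the share was 0.193% to 0.690%, and for *Fezf2* it was 0.637% to 1.11%. In bulk tissue, fewer cells of a type and less RNA per cell cannot be told apart.

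In E18.5 midbrain the same share, still against P21 cortex, was 1.41% ± 0.853 for *Emx1* (SD over 12 libraries), 5.02% ± 1.66 for *Fezf2* and 5.13% ± 1.82 for *Tbr1*. The later excitatory factors were higher, at 22.8% ± 3.9 for *Neurod2* and 23.4% ± 3.14 for *Neurod6*. *Bcl11b* reached 51.4% ± 4.39, *Cux2* 64.2% ± 7.36 and *Rorb* 76.9% ± 4.35. *Emx1* was lowest at both ages and *Rorb* highest. These libraries include no E18.5 cortex. Age and region therefore differ together in the E18.5 share, and it cannot check the E18.5 dissection. With TMM-scaled CPM in place of TPM the E18.5 shares were 19.1% for *Neurod6*, 18.6% for *Neurod2*, 42.0% for *Bcl11b*, 52.4% for *Cux2* and 62.8% for *Rorb*, in each case more than 1 SD lower.

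**Figure D3:**
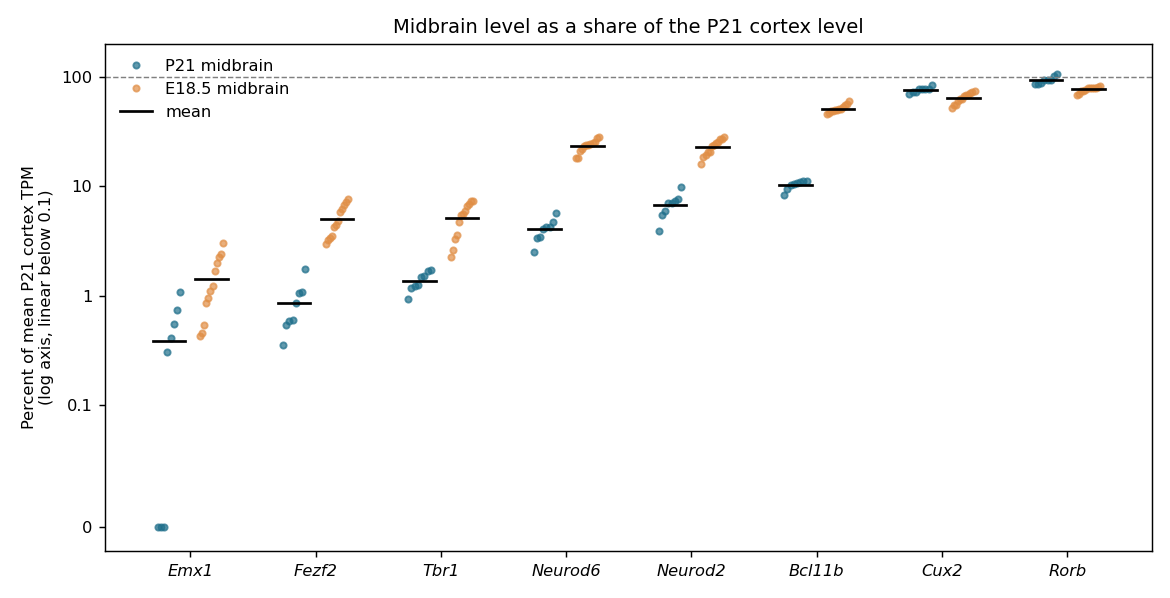
Level in each midbrain library as a percent of the mean P21 cortex TPM of the same gene, on a log axis that is linear below 0.1. For E18.5 libraries, age and region differ together. Blue points are 8 P21 and orange points 12 E18.5 midbrain libraries, black bars are means and the dashed line is the cortex mean; the mean share at P21 rose from 0.386% for *Emx1* to 93.8% for *Rorb*, and for 6 genes the E18.5 mean lay above the P21 mean.

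Other genes of the same neurons were set beside these shares. In a list of 26 further transcription regulators of cortical projection neurons and their progenitors, 23 were higher and 3 lower in P21 cortex than in P21 midbrain, where 37.7% and 37.9% of all genes were. Their median log2 fold change was 1.36, and 8 were at least 4-fold higher, where 2.43% of all genes were. *Foxp2* (−0.63) and *Zfpm2* (−0.37) were the lowest. Among 15 genes of layers and projection neurons that are no transcription factors, 12 were higher and 1 was lower. *Crym*, a thyroid hormone-binding protein of deep layers, led with 6.57 (SE 0.11) and kept 1.12% in P21 midbrain. *Nrgn*, a calmodulin-binding protein of dendritic spines, followed with 4.17 (SE 0.070) and kept 5.86%, and *Nxph4* was lower in cortex by a log2 fold change of −2.34.

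Genes from lists of neighbouring-tissue markers were detected in the midbrain dissections, and their tissue of origin was not tested. The counts called in these lists stand against 37.7% of all genes higher and 37.9% lower in cortex. A thalamic list of 11 genes summed to 677.6 to 804.8 TPM in P21 midbrain and 143 to 150.5 TPM in cortex, its highest gene in midbrain was the vesicular glutamate transporter *Slc17a6* at 203 TPM, which midbrain neurons also express, and all 11 genes were lower in cortex. None of its genes had 0 counts in all midbrain libraries. A hippocampal list of 10 genes summed to 62.8 to 74.5 TPM in P21 midbrain and 88.4 to 101 TPM in cortex. Of its genes, 7 were higher and 3 lower in cortex. Its highest gene in midbrain was *C1ql2*, a marker of the dentate gyrus, at 15.98 TPM, against 9.44 TPM in cortex. *Dsp* and *Lct* of the same list were at 0.337 and 0.385 TPM in P21 midbrain. Of 13 transcription factors of forebrain interneurons, 11 were higher in cortex and 1 lower, and they summed to 62.0 to 73.9 TPM in P21 midbrain. Of 10 cerebellar markers, *Neurod1*, which is also among the 26 regulators, was higher and 6 were lower in cortex, with 73.5 to 114 TPM in P21 midbrain. The highest of these markers in P21 midbrain was *Cbln1* at 49.6 TPM. The part of these tissues in the midbrain levels of the 8 genes was not tested.

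Between the ages of the midbrain, 7 of the 8 genes passed the filter on low counts, and *Emx1* did not. From E18.5 to P21, 5 genes fell, where 43.3% of the 16330 genes tested were called lower, and 2 rose, where 42.4% were called higher. *Fezf2* fell by 2.36 on the log2 scale (SE 0.26), *Neurod6* fell by 2.33 (SE 0.12) and *Bcl11b* fell by 2.11 (SE 0.059), which made 3 genes at least 4-fold lower, where 3.83% of all genes were. *Tbr1* fell by 1.68 (SE 0.21) and *Neurod2* fell by 1.55 (SE 0.13). For these 5 genes every P21 library lay below every E18.5 library, as it did for 36.8% of all genes tested. *Fezf2*, with 3 to 11 counts per library at P21, was below the filter there and was tested through its E18.5 level. *Rorb* rose by 0.49 (SE 0.046) and its ages did not overlap, whereas *Cux2* rose by 0.45 (SE 0.051) with overlapping libraries. On the TPM scale the 2 increases were smaller, 1.22-fold for *Rorb* and 1.19-fold for *Cux2*. *Emx1* differed by −1.28 on the log2(TPM + 0.1) scale (two-sided exact permutation test, p = 0.0021), and by −0.32 with a pseudocount of 1 in place of 0.1 (exact permutation p = 0.0025). The difference rests on 1 to 6 counts per library at E18.5, and its size depends on the pseudocount.

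Of the 26 further regulators 22 were lower and 2 higher at P21, where 43.3% and 42.4% of all genes were, with a median log2 fold change of −1.27. *Eomes*, of intermediate progenitors, fell by 4.01 and *Neurod1* fell by 2.97, while *Etv1* (0.61) and *Pou3f1* (0.21) rose. The layer genes that are no transcription factors had 10 higher and 3 lower of 15 and a median of 1.08, against the same shares of all genes. *Slc17a7*, the vesicular glutamate transporter of cortical neurons, rose by 5.30 (SE 0.093) and stood at 0.228% of its P21 cortex level in midbrain at E18.5 and at 7.93% at P21, opposite in order to the shares of *Neurod2* and *Neurod6*. *Crym* fell by 1.93. Of the 21 genes of the midbrain list, 15 were lower and 4 higher at P21, again where 43.3% and 42.4% of all genes were.

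Genotype was compared within each dissection. No member was called in P21 cortex (0 of 8), P21 midbrain (0 of 6) or E18.5 midbrain (0 of 7), where 0% of 15767, 15972 and 15540 genes were called by edgeR. The paper, with edgeR at the same thresholds, called *Gkn3* lower in hu/hu P21 midbrain, which the fit here did not. The cause of this difference was not tested. At an unadjusted p under 0.05, 450 (2.85%), 426 (2.67%) and 201 genes (1.29%) passed, and none of the 8 was among them. In cortex the log2 fold changes of hu/hu against wt/wt ran from -0.09 for *Fezf2* (95% interval -0.26 to 0.07) to 0.03 for *Rorb* (-0.08 to 0.13). The *Tbr1* interval in cortex was -0.09 to 0.11 and that of *Cux2* -0.14 to 0.04, so that changes beyond about these sizes lay outside the intervals. In midbrain the precision was lower for genes with few counts, with -0.67 to 0.36 for *Tbr1* at P21 and -0.37 to 0.73 for *Fezf2* at E18.5. *Cux2* had an interval of -0.18 to 0.05 in midbrain at P21 and -0.19 to 0.12 at E18.5. These fits did not pair the genotypes by replicate number. With that pairing the SE of *Tbr1* was 0.17 in place of 0.28 in E18.5 midbrain, and 0.243 in place of 0.240 in P21 midbrain.

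The genes below the filter were compared by two-sided exact permutation tests of log2(TPM + 0.1), also without pairing. In P21 midbrain the difference was 0.29 for *Emx1* (exact permutation p = 0.657) and −0.16 for *Fezf2* (exact permutation p = 0.714). In E18.5 midbrain it was 0.033 for *Emx1* (exact permutation p = 0.948). No difference was found, from at most 11 counts per library at P21 and at most 6 for *Emx1* at E18.5. Apart from *Emx1* and *Fezf2*, which were below the filter in P21 midbrain, none of the other 6 was called for a genotype difference that depended on region or on age, where 0% of 16345 and 16330 genes were called and 2.28% and 1.86% had an unadjusted p under 0.05. None of the 6 had such a p without the replicate number as a block. With that block, which pairs the genotypes, *Neurod2* had an unadjusted p of 0.025 for region and 0.014 for age (edgeR, adjusted p of 1 and 0.995).

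**Figure D4:**
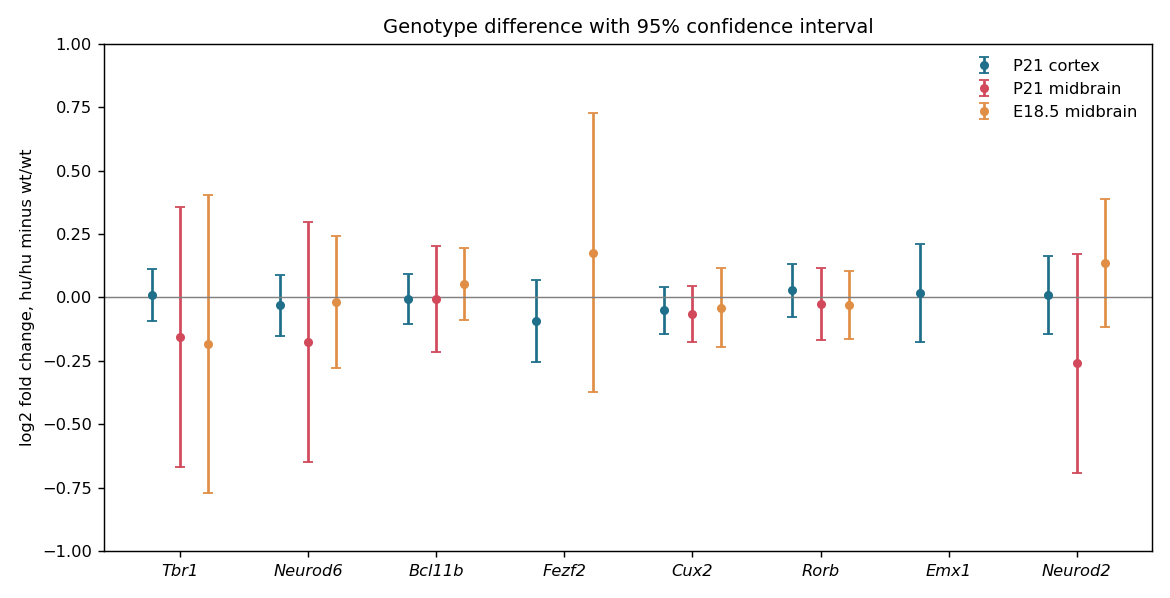
Log2 fold change of hu/hu against wt/wt for each gene in P21 cortex (blue), P21 midbrain (red) and E18.5 midbrain (orange), with 95% confidence intervals from edgeR without pairing by replicate number. Every interval includes 0; *Fezf2* and *Emx1* in P21 midbrain and *Emx1* in E18.5 midbrain have no point because they were below the filter.

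*Neurod2* in P21 midbrain had the largest difference of the 6 genes tested there, with a log2 fold change of -0.26 (SE 0.20, adjusted p = 1 by edgeR). It was lower in hu/hu in 4 of 4 same-numbered pairs there, in 2 of 4 in P21 cortex and in 1 of 6 in E18.5 midbrain, where the log2 fold change was 0.14 (SE 0.12). In P21 midbrain, replicate 3 was the lowest in both genotypes and replicate 2 the highest. Beside it, the cerebellar granule cell genes *Gabra6* and *Cbln3*, which were chosen after their values were seen, also differed between libraries. *Gabra6*, a GABA receptor subunit, was at 2.3, 5.58, 0.208 and 7.07 TPM in wt/wt and 0.438, 2.67, 0.186 and 1.73 TPM in hu/hu replicates 1 to 4. *Cbln3*, a secreted synaptic protein, was at 2.31, 5.38, 0.651 and 7.04 TPM in wt/wt and 1.06, 2.33, 0.6998 and 2.001 TPM in hu/hu. Both were lowest in replicate 3 of each genotype, as *Neurod2* was. In hu/hu both were highest in replicate 2, as *Neurod2* was. In wt/wt both were highest in replicate 4, whereas *Neurod2* was highest in replicate 2. *Neurod1*, the paralog in the same granule cells, was at 3.59, 4.89, 2.96 and 6.49 TPM in wt/wt and 2.53, 2.83, 2.65 and 3.03 TPM in hu/hu. Its lowest library was replicate 3 in wt/wt but replicate 1 in hu/hu, and its highest was replicate 4 in both. Of the 10 cerebellar markers, 6 had an unadjusted p under 0.05 in this comparison, where 2.67% of all genes had, and 0 were called, with a median log2 fold change of −0.42, and their sum was 73.5 to 114 TPM in wt/wt and 75.6 to 86.9 TPM in hu/hu. Their part in the *Neurod2* difference was not tested.

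**Figure D5:**
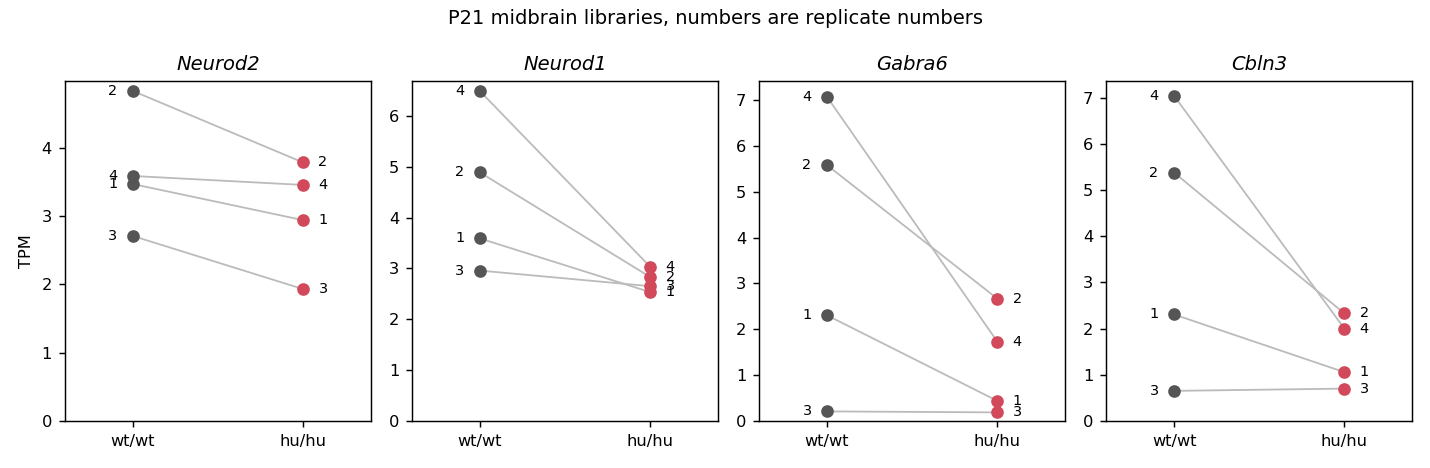
TPM of *Neurod2*, *Neurod1*, *Gabra6* and *Cbln3* in the 8 P21 midbrain libraries, with numbers for replicates and lines between wt/wt and hu/hu libraries of the same number. *Neurod2* was lower in hu/hu in 4 of 4 pairs, and replicate 3 was lowest for *Neurod2*, *Gabra6* and *Cbln3* in both genotypes. In wt/wt the highest library was replicate 2 for *Neurod2* and replicate 4 for the other genes.

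Likeness was measured as Pearson's r of log2(TPM + 0.1) over the 28 libraries, which fall into 3 dissections, so that r mostly reflects their 3 mean levels. Among the members, *Tbr1* and *Fezf2* (r = 0.974), *Neurod6* and *Neurod2* (0.971), *Neurod6* and *Bcl11b* (0.969) and *Tbr1* and *Emx1* (0.967) were the closest pairs. *Rorb* and *Bcl11b* were the least alike (−0.036), and *Rorb* was closest to *Cux2* (0.763). Of 16295 other genes with a mean of at least 1 TPM in at least 1 group, the nearest to *Bcl11b* were *Mmd* (0.996) and *Plk2* (0.994), to *Neurod6* *Arpp19* (0.989) and *Rragd* (0.986), and to *Neurod2* *Jph4* (0.986) and *Agap2* (0.984). *Tbr1* was nearest to *Dcaf6* (0.987) and *Crym* (0.986), *Fezf2* to *Kalrn* and *Lmo4* (both 0.987) and *Emx1* to *Tcf4* (0.979) and *Actn2* (0.978). For *Cux2* they were *Ppp1r37* (0.969) and *Gm996* (0.962), and for *Rorb* *Orai3* (0.931) and *Rprd1a* (0.930). A high r did not mean an equal contrast, since *Crym* was at 139 TPM in cortex and 1.56 TPM in P21 midbrain while *Dcaf6* was at 101 and 52.1 TPM.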

How the data were processed

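Poly(A)-selected RNA of 28 mouse brain dissections had been sequenced as paired-end reads. Per the study's methods, OLego placed them on mm10 and the authors obtained gene totals with Quantas. For 23038 genes the deposited tables give the expected count, an RPKM value and the exon length. 751 to 2715 expected counts per library were not whole and were rounded for the tests. The deposited RPKM values followed from counts, lengths and totals (largest relative difference 2.27e-13) and were not used further. The exon length column had deposited units of bases. Use of the strand is not given in the sources used here; no other gene's exons overlapped those of the 8 genes in GENCODE vM21. The version of the annotation behind the counts is not given either.

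TPM was computed from the unrounded counts over all genes. The members and the gene lists were chosen with earlier results of these data known. The tests used R 4.3.3 and edgeR 4.0.16 (glmQLFit and glmQLFTest, TMM, filterByExpr), with genotype as a covariate where regions or ages were compared and no covariate for genotype, two-sided, with calls at p under 0.05 and adjusted p under 0.1. Genes below the filter were compared with exact permutation tests (SciPy 1.17.1). On simulated counts the tests recovered most of the known changes. The share recovered and the false calls are not given here, so this check does not measure power for the small genotype differences. Mice are the replicates; intervals for single counts cover counting error only. With 4 to 6 libraries per group and no pairing, the median SE of a genotype log2 fold change was 0.077 in P21 cortex, 0.076 in P21 midbrain and 0.087 in E18.5 midbrain.

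Same-numbered wt/wt and hu/hu libraries deviated together (correlation of deviations from 0.170 to 0.246 for cortex, 0.201 to 0.235 for midbrain at P21 and 0.171 to 0.391 for the E18.5 pairs), so the numbers pair the genotypes; the study's reporting summary mentions male-female pairs. Alternatives were RLE factors, DESeq2 1.42.0, all genes unfiltered or only those reaching 10 counts in each library, a stricter adjusted p of 0.05, a block for the replicate number, single genotypes, a pseudocount of 1, and each P21 library left out. The quasi-likelihood test with adjusted deviances was added after seeing the data. Named were all 8 members, per list and comparison the 2 highest and 2 lowest genes called, the highest gene of neighbouring lists and the 2 genes most like each member. Some genes that this rule names are not reported here. RefSeq (GRCm38.p6) gave positions and promoters; promoters of all 8 genes were matched by symbol.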

Additional observations from a re-analysis of the deposited data

How the results depend on the processing

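Where a gene of the 8 was tested under an alternative, its regional or age difference kept its direction and its call. With at least 10 counts required in every library, *Emx1* and *Fezf2* were not tested between regions at P21, which left 6 genes higher and 4 at least 4-fold higher, and *Emx1* was not tested between P21 cortex and E18.5 midbrain, which left 7 higher. Between ages that filter left 4 genes lower, without *Fezf2*, and no filter gave 6. Of 1431 alternative values 1403 kept direction and side of the threshold, moved by under 1 SD or, as counts of genes called, changed by a limited factor. A count of 8 that became 6 was within that limit. With TMM-scaled CPM the E18.5 shares of the P21 cortex level moved to 19.1% for *Neurod6*, 42.0% for *Bcl11b*, 52.4% for *Cux2*, 62.8% for *Rorb* and 18.6% for *Neurod2*; TMM-scaled ratios differ from TPM ratios for the median gene too. The genotype comparison in P21 midbrain, with 0 genes called, gave 1 gene with DESeq2 and 4 with the replicate block; none was a member, and the cause was not tested.

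Genotype differences near 0 changed sign when 1 library was left out, none past the threshold. In P21 cortex the log2 values ranged from −0.020 to 0.059 for *Tbr1*, −0.043 to 0.019 for *Bcl11b*, −0.057 to 0.069 for *Neurod2*, −0.051 to 0.058 for *Emx1* and −0.062 to 0.018 for *Neurod6*. In P21 midbrain they ranged from −0.091 to 0.039 for *Bcl11b* and −0.072 to 0.033 for *Rorb*, and *Neurod2*, which did not change sign, from −0.39 to −0.088. With the replicate block *Bcl11b* in P21 midbrain was 0.0014 in place of −0.0057. With that block *Neurod2* was −0.27 (SE 0.14, unadjusted p = 0.066, edgeR) in P21 midbrain. Its dependence on region and age had unadjusted p of 0.025 and 0.014 (edgeR) but adjusted p of 1 and 0.995. The pairing changed no call of a member. Between regions the correlation of same-numbered libraries was negative throughout (−0.201 to −0.102). The median for other pairs was 0.0838 in wt/wt and 0.109 in hu/hu. Between ages same-numbered libraries had no common sign (−0.145 to 0.147). Whether cortex and midbrain of the same number came from the same mouse is not stated in the labels, and the main regional fit did not pair them. Depth limited *Emx1* and *Fezf2* in midbrain, with at most 11 counts per P21 library.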
